A study of Mus musculus with 4 samples.

Results

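Prostaglandins are short-lived lipid signals made from arachidonic acid. Cyclooxygenases turn the acid, once phospholipases have freed it from membranes, into prostaglandin H2, and terminal synthases turn that product into prostaglandin E2, prostacyclin and other forms. These act on G protein-coupled receptors of nearby cells and are cleared by uptake and oxidation. In fibroblasts Ptgs1 is known as the steadily expressed cyclooxygenase gene and Ptgs2 as the one induced by serum and cytokines. The genes described are Ptgs1, Ptgs2, the noncoding RNA gene Ptgs2os2, the synthase genes Ptges, Ptges2, Ptges3 and Ptgis, the receptor genes Ptger4 and Ptgfr, and Hpgd, which encodes an enzyme of prostaglandin breakdown. They were chosen by function with the fold changes of the comparison below in view, were taken by gene symbol, and hold 11 of the 40739 transcript rows and 10 of the 25177 gene symbols of the authors' deposited table. Ptgs2os2 and Hpgd are neither synthesis nor receptor genes.

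Nuclear RNA was measured in NIH-3T3, a fibroblast cell line established from mouse embryos. All cells carried a histone H2B-mCherry fusion, the rtTA3G transactivator and a CDX2 transgene under the TRE3G promoter, which rtTA3G drives when doxycycline is bound. CDX2 is a homeobox transcription factor of the intestine and trophectoderm. The Dox group (2 libraries) received doxycycline and the noDox group (2 libraries) solvent alone, each for 6 h on 500000 cells. The labels give the dose as 500 ng/ml in one protocol and the same figure per microlitre in another. Nothing in the labels says that the 2 libraries of a group came from separate cultures, and the spread behind the p-values may therefore be technical. With no doxycycline-treated cells lacking the transgene among the samples used here, effects of the drug and of CDX2 cannot be told apart.

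The authors' deposited table gives each transcript a mean level and a fold change and no value per library, so no value by sample and no overlap between the groups can be shown. The effective library size was about 45700000 counts as a geometric mean. By the authors' deposited table, Cdx2 rose 124-fold with doxycycline (95% interval 109-fold to 140-fold). Its level was 4.96 CPM (counts scaled to a common library size) in solvent and 612 CPM with doxycycline. Cdx2 RNA was thus not absent in solvent, and its source there was not tested. Of the markers checked, 8 of 8 fibroblast genes reached the floor of 10 counts used for testing, 3 of 6 macrophage and leukocyte genes, 1 of 4 endothelial and 1 of 4 epithelial genes, and Adgre1 and Krt18 had no reads. The summed level of the fibroblast markers was 6444 CPM without and 5257 CPM with doxycycline. For the leukocyte markers it was 7.86 and 10.3 CPM, and for the endothelial markers 4.62 and 3.95 CPM. The epithelial markers summed to 1.47 and 0.509 CPM. Single genes were called in the leukocyte and epithelial lists: Cd14 was higher (0.55 ± 0.10) and Cdh1 lower (-1.62 ± 0.22) on the log2 scale in the authors' deposited table, while Cd68, Lyz2 and Cdh5 were not called. Of the fibroblast markers, 7 were called lower, and their part in the results below was not tested.

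The sequences below belong to the cyclooxygenase genes and to Ptgs2os2, the members whose falls were still called when the standard errors were widened. Each is the stretch of 250 bases before the annotated start site (RefSeq, GRCm38.p6, the assembly that mm10 names), written 5′ to 3′ on the strand of its gene, with CG dinucleotides in capitals.
Ptgs2, chr1:150099781-150100030, plus strand: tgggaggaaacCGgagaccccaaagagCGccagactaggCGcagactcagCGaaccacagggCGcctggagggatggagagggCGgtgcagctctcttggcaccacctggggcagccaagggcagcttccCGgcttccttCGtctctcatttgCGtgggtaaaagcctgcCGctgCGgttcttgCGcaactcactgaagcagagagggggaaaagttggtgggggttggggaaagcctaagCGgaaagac
Ptgs2os2, chr1:150164949-150165198, minus strand: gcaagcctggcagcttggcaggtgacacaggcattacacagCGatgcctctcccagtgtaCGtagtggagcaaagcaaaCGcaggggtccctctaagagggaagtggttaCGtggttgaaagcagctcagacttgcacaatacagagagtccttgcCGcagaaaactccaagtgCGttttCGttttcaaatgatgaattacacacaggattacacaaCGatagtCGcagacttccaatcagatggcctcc
Ptgs1, chr2:36230176-36230425, plus strand: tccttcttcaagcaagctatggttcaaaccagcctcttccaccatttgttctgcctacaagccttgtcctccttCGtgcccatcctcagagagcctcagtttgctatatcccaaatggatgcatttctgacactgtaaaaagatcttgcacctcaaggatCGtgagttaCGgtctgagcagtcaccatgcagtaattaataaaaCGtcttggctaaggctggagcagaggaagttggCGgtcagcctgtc
The Ptgs2 stretch holds 13 CG dinucleotides, that of Ptgs2os2 holds 9 and that of Ptgs1 holds 5, beside a median of 6 (quartiles 2 and 16) over 32851 promoters of the same length. The GC content was 61.6%, 50.4% and 48.0% in that order, and 52.4% as the median of all promoters. Among the members not printed, Ptges3 (38 CG dinucleotides) and Ptger4 (19) had the most.

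The start site of Ptgs2 lies 157 bases from that of Ptgs2os, a noncoding gene transcribed the other way, so the upstream stretch printed for Ptgs2 also holds the beginning of Ptgs2os. Just inside the annotated Ptgs2 transcript, in its 5′ UTR as annotated, an E-box (CACGTG) overlaps a core of the cAMP response element (TGACGT, here on the opposite strand). It is shown because it lies in the promoter windows of both divergent genes, with the overlapping motifs in capitals (plus strand).
Ptgs2, chr1:150100033-150100062: agtcaccactACGTCACGTGgagtccgctt
The capitals cover bases 13 to 22 counted from the annotated start site as 1. Start sites were not measured here, and with a start further downstream the site would lie upstream of the transcript and the windows would shift. In windows of 300 bases (250 before the start site and 50 from it onwards), searched on both strands, 7.15% of the 32851 promoters held CACGTG and 7.51% held TGACGT, and 0.0974% held the overlapping form shown in capitals. Of the 9 members with a promoter among these, Ptgs2 and Ptges2 held CACGTG, and Ptgs2 alone held TGACGT. The overlapping form was copied from the Ptgs2 window before it was counted, so its presence in Ptgs2 was fixed in advance. No other member held it, and its share of all promoters is a description. Other motifs searched were a CDX core (TTTATG), found in Ptges2 alone and in 11.9% of all promoters, and a TATA box (TATAAA), found in Hpgd alone and in 13.6%. An AP-1 site (TGANTCA) was in none of the 9 windows and in 7.81% of all promoters. For NF-kappaB only a strict form of the site, with nearly every base fixed, was searched. It was in none of the 9 windows and in 0.411% of all promoters. Looser forms of the NF-kappaB site were not searched, so the windows may still hold them. A match describes letters only and no binding was measured.

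Since the members were chosen with the values of this same comparison known, their fold changes and the authors' adjusted p-values are given as a description. The floor for testing was a mean (geometric) of 10 counts in each library, and 8 of the 10 members reached it in the authors' deposited table, of which 5 were lower and 1 higher at an adjusted p under 0.05 and 2 were not called. Over all 12355 genes that reached the floor, 24.7% were called, 13.4% lower and 11.3% higher. Rises made up 45.7% of those calls. When p-values were adjusted over those 12355 genes only, 27.5% were called, 14.7% lower and 12.7% higher, and the members' counts were the same. Rises were 46.4% of the calls adjusted that way, and 59.8% once the ribosomal protein genes were also centred at 0. With standard errors widened 2.08 times as well, 3 members were lower (Ptgs2, Ptgs2os2 and Ptgs1) and 0 higher, where 4.66% of all genes were called, 3.12% lower and 1.54% higher. The median log2 fold change was -0.35 over the 8 members and -0.0011 over all genes tested, both in the authors' deposited table. The members called lower were the cyclooxygenase genes Ptgs2 and Ptgs1, Ptgs2os2, the receptor gene Ptger4 and the prostacyclin synthase gene Ptgis, and of the prostaglandin E synthase genes Ptges was called higher and Ptges2 and Ptges3 were not called.

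**Figure D1:**
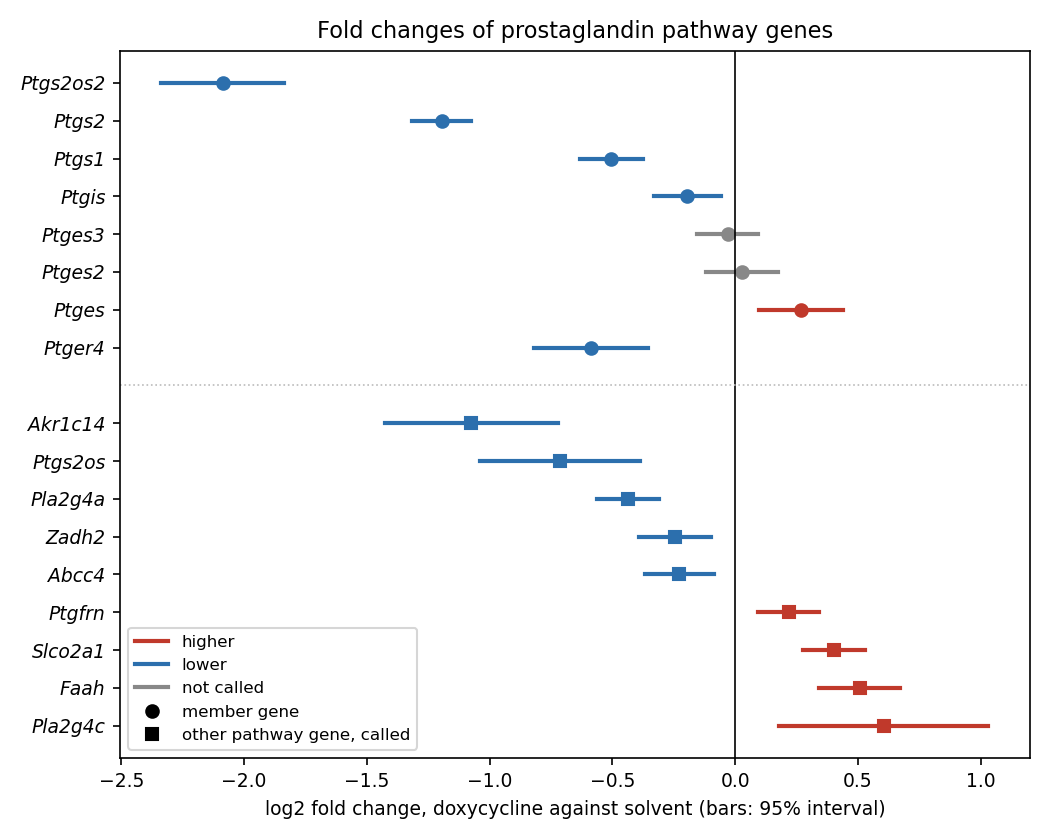
Log2 fold change with doxycycline (x axis, points, with 95% intervals as bars) of the 8 members that reached the count floor (circles) and of the 9 other pathway genes called (squares), in blue where lower, red where higher and grey where not called. Ptgs2os2 and Ptgs2 lie farthest to the left, at -2.09 and -1.20, and Ptges is the member to the right of 0 that was called.

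Ptgs2, which encodes the inducible cyclooxygenase, was the member with the most counts. Its level was 268 CPM without and 117 CPM with doxycycline, as the mean and fold of the authors' deposited table imply. That is a 2.29-fold fall (95% interval 2.11-fold to 2.49-fold), or a log2 fold change of -1.20 ± 0.062 (± standard error) in the authors' deposited table. Among the 12355 genes ordered from the largest fall, Ptgs2 stood at place 96 and Ptgs2os2 at place 11.

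Ptgs1, which encodes the cyclooxygenase of steady synthesis, fell by less. It lies on mm10 chromosome 2, 36230426 to 36252271, plus strand. Its level was 97.6 CPM without and 68.8 CPM with doxycycline, 1.42-fold lower (95% interval 1.30-fold to 1.55-fold), or -0.50 ± 0.066 on the log2 scale in the authors' deposited table. Counted per kb of exon, Ptgs2 RNA stood at 60.4 and Ptgs1 RNA at 34.3 CPM per kb without doxycycline, a ratio of 1.76. With doxycycline the values were 26.4 and 24.2 CPM per kb, a ratio of 1.09. The summed level of both genes went from 94.7 to 50.5 CPM per kb. So the nuclear RNA of the inducible gene, which was the more abundant of the pair in solvent, came close to the level of Ptgs1 with doxycycline.

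**Figure D2:**
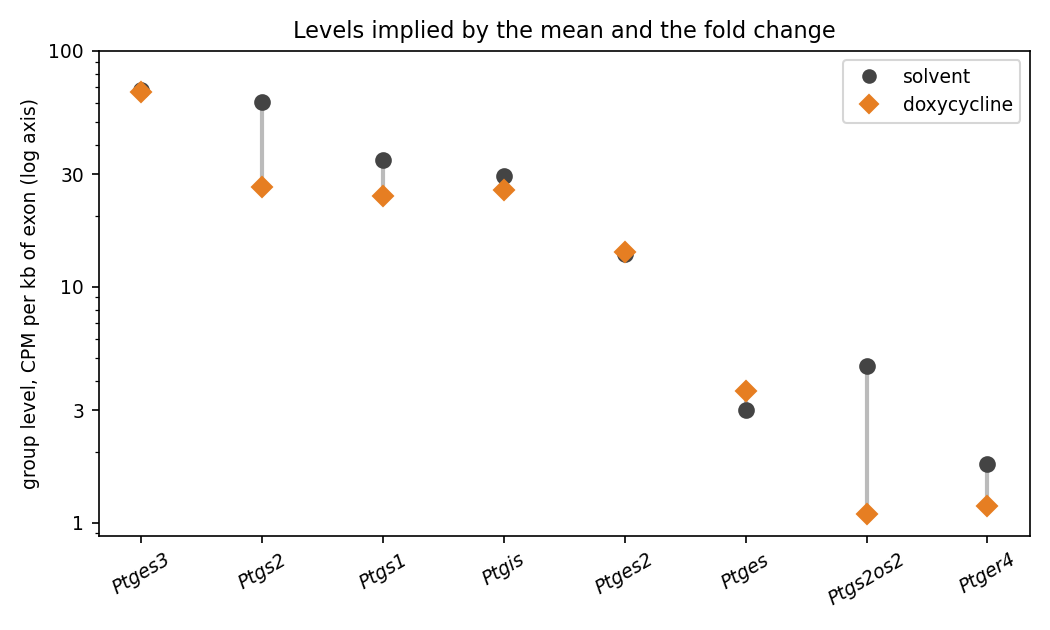
Level of each of the 8 members in solvent (dark circles) and with doxycycline (orange diamonds), in CPM per kb of exon on a log axis, as implied by the mean and the fold change of the authors' deposited table; no error is drawn because the table gives none for a level. Ptgs2 drops from 60.4 to 26.4 and Ptgs2os2 from 4.60 to 1.08, while the symbols of Ptges2 and Ptges3 overlap.

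Ptgs2os2 is a noncoding RNA gene near Ptgs2 that RefSeq also lists as Lincrna-cox2, known from macrophages as an RNA induced by inflammatory stimuli together with Ptgs2. It had the largest fall of the members. Its level went from 8.01 CPM in solvent to 1.89 CPM with doxycycline, 4.25-fold lower (95% interval 3.57-fold to 5.05-fold), in the authors' deposited table. The log2 fold change was -2.09 ± 0.13 at a mean of 177 counts per library in the authors' deposited table. The row (NR_110420, mm10 chromosome 1, 150159043 to 150164948, minus strand) does not overlap that of Ptgs2 (NM_011198, chromosome 1, 150100031 to 150108234, plus strand).

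The genes around Ptgs2 were then followed outwards for 500000 bases on either side. Of 6 neighbours that reached the count floor, 3 were lower (Ptgs2os2, Ptgs2os and Pla2g4a), 0 higher and 3 not called in the authors' deposited table (limma; 4 had an unadjusted p under 0.05), beside 13.4% of all genes called lower. Ptgs2os2, like Ptgs2, was chosen with its fold change known, so the count is a description. From 2.21 CPM in solvent, Ptgs2os fell to 1.35 CPM, by 0.71 ± 0.17 on the log2 scale with an adjusted p of 2.58e-04 in the authors' deposited table. That call was lost with standard errors widened and p-values adjusted over the genes tested, where the Pla2g4a call was kept. Pla2g4a encodes cytosolic phospholipase A2, the enzyme that releases arachidonic acid for the cyclooxygenases, and its start site lies at -139 kb from that of Ptgs2. It fell from 96.4 to 71.2 CPM, a log2 fold change of -0.44 ± 0.065 with an adjusted p of 9.15e-10 in the authors' deposited table. On the far side of Ptgs2os2, with start sites 293 to 366 kb from that of Ptgs2, Odr4 stood at -0.019 ± 0.082, Tpr, a nuclear pore gene, at 0.13 ± 0.062 and Prg4, which encodes lubricin, at -0.14 ± 0.13 in the authors' deposited table. Since Ptgs2 and Ptgs2os2 were picked with their values known, nothing is read from the order of the calls along the chromosome.

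**Figure D3:**
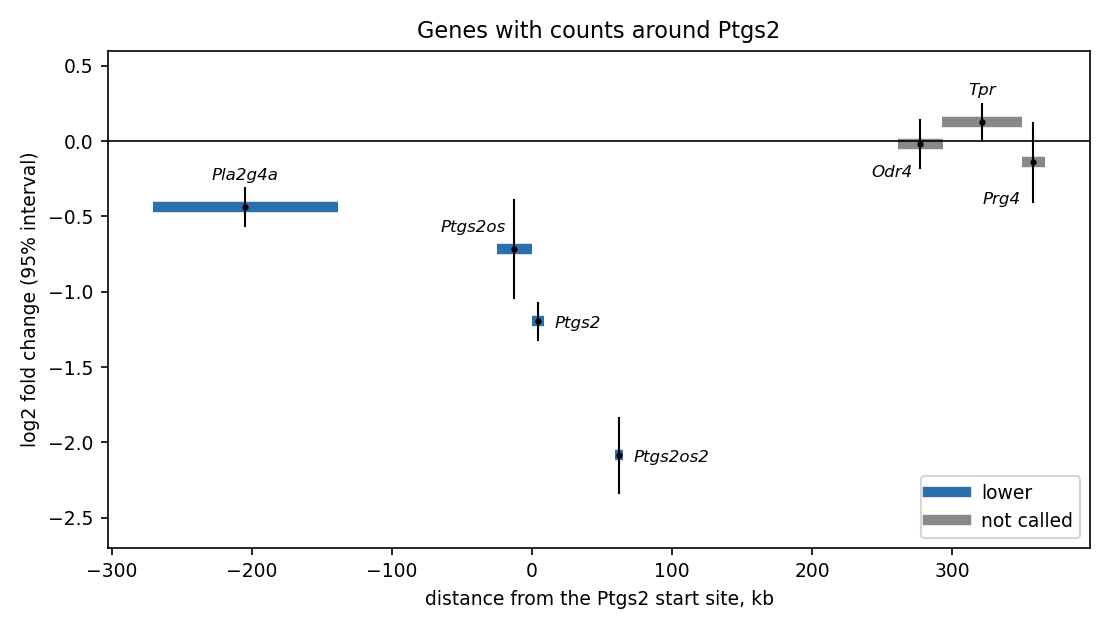
Log2 fold change (y axis, points with 95% intervals) of the genes that reached the count floor around Ptgs2, drawn as bars over their span in kb from the Ptgs2 start site (x axis), in blue where called lower and grey where not called. The 4 blue bars, Pla2g4a, Ptgs2os, Ptgs2 and Ptgs2os2, sit below 0, and the 3 grey bars more than 250 kb to the right lie near 0.

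Around Ptgs1, Rbm18 (0.29 ± 0.077) and Dab2ip (0.19 ± 0.067) rose and Lhx6 (-0.28 ± 0.089) fell among 6 tested in the authors' deposited table. Around Ptges, Ier5l (-0.54 ± 0.067), Ntmt1 (-0.31 ± 0.074) and Prrx2 (-0.22 ± 0.076) fell among 16 in the authors' deposited table. Around Ptgis, Znfx1 (0.41 ± 0.070) and Tmem189 (0.38 ± 0.074) rose and Snai1 (-0.68 ± 0.079) and Slc9a8 (-0.22 ± 0.074) fell among 17 in the authors' deposited table. Around Ptger4, 0 of 4 were called in the authors' deposited table (limma; 1 had an unadjusted p under 0.05). Over all genes tested, 24.7% were called, 13.4% lower and 11.3% higher. Whether the calls of these neighbours hold with standard errors widened is not given here. The difference between these neighbourhoods and that of Ptgs2 was not tested.

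The terminal synthase genes moved little. Ptges encodes the inducible microsomal prostaglandin E synthase, which commonly acts with the Ptgs2 product, and it rose while Ptgs2 fell. It lies on chromosome 2, 30889471 to 30903297, minus strand. Its level was 10.9 CPM without and 13.2 CPM with doxycycline, 1.21-fold higher (95% interval 1.07-fold to 1.36-fold), a log2 fold change of 0.27 ± 0.088 with an adjusted p of 0.0175 in the authors' deposited table. That call was lost with standard errors widened (adjusted p 0.698, Benjamini-Hochberg over the genes tested). Ptges2, a second membrane-associated synthase gene, stood at 0.028 ± 0.074 (95% interval -0.12 to 0.17 on the log2 scale) in the authors' deposited table. Ptges3, whose product is both a cytosolic prostaglandin E synthase and the Hsp90 cochaperone p23, stood at -0.031 ± 0.064 (95% interval -0.16 to 0.094) in the authors' deposited table. Ptges2 lies on chromosome 2, 32395890 to 32402740, and Ptges3 on chromosome 10, 128058982 to 128077254, both on the plus strand. These intervals leave room for changes of up to 1.13-fold higher in Ptges2 and 1.11-fold lower in Ptges3.

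Ptgis, the prostacyclin synthase gene, was called lower by a small amount. It lies on chromosome 2, 167203194 to 167240605, minus strand. It went from 53.0 to 46.3 CPM, a log2 fold change of -0.20 ± 0.069 with an adjusted p of 0.0346 in the authors' deposited table. That call was lost once the ribosomal protein genes were centred at 0 (log2 fold change -0.15, adjusted p 0.0859, Benjamini-Hochberg over the genes tested) and with standard errors widened (adjusted p 0.768). The rows of Ptges and Ptgis each overlap a predicted gene in RefSeq (Gm52550 and Gm52569), so they may share reads, and whether the counting used strand was not stated in the sources used here.

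By level per kb of exon, averaged over both groups, Ptges3 was the most abundant synthase RNA at 67.3 CPM per kb, followed by Ptgis (27.5), Ptges2 (13.8) and Ptges (3.29). Ptges3 lay at percentile 95.9 of the genes tested and Ptges at percentile 35.5. The called synthase changes were thus in the gene of lowest level and in Ptgis. The table holds no spread for a level, so neighbours in this order were not compared.

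**Figure D4:**
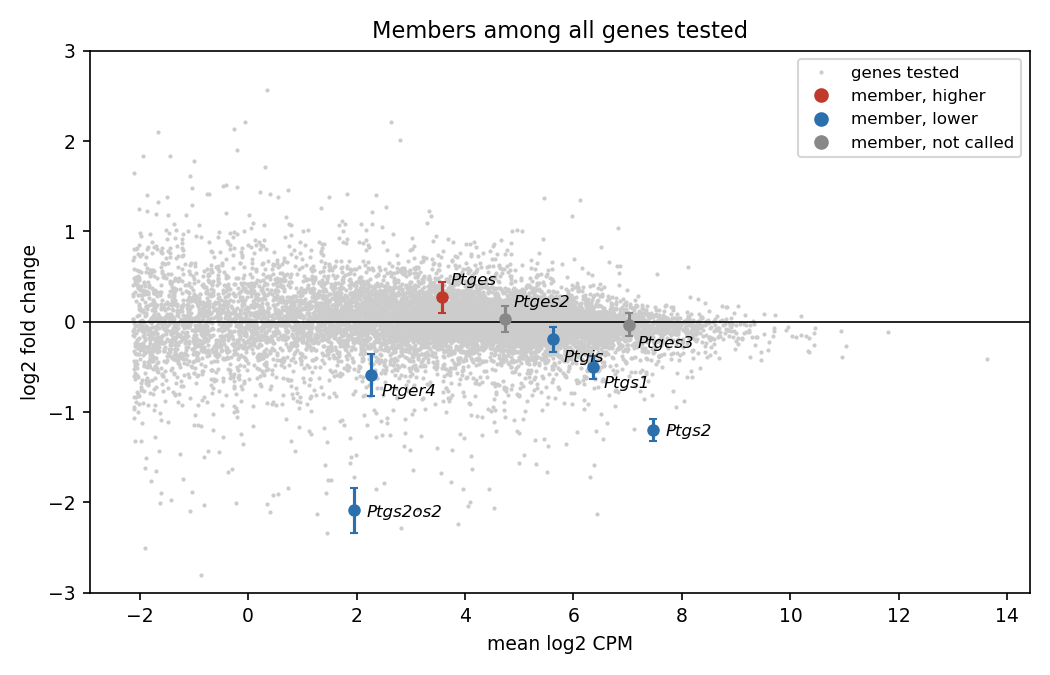
Mean log2 CPM (x axis) and log2 fold change (y axis) of the 12355 genes tested (grey) and of the 8 members (coloured by call, with 95% intervals); 2 genes lie outside the axis limits of -3 and 3. Ptgs2 and Ptgs2os2 lie below most grey points at their level, while Ptges2 and Ptges3 lie on the line at 0.

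Among the receptors, Ptger4 was the member with reads enough to test. It encodes EP4, a receptor of prostaglandin E2 that raises cAMP, and lies on chromosome 15, 5233399 to 5244187, minus strand. Its level fell from 5.89 to 3.92 CPM, a log2 fold change of -0.59 ± 0.12 with an adjusted p of 1.29e-05 in the authors' deposited table. The call was lost with standard errors widened (adjusted p 0.196, Benjamini-Hochberg over the genes tested). Both Ptger4 rows span the same bases and differ in exon length, and they gave -0.59 and -0.57 in the authors' deposited table, so they do not count as separate evidence. Ptgfr, the prostaglandin F receptor gene (chromosome 3, 151798610 to 151837528, minus strand), averaged 0.484 counts per library as a geometric mean and was not tested. Hpgd, the gene of the dehydrogenase that inactivates prostaglandins (chromosome 8, 56294552 to 56321046, plus strand), was without reads in all 4 libraries by the authors' deposited table. At this depth 0 counts allow a level of up to 0.0656 CPM per library (3 counts, counting error only), so no fold is given for either gene.

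Other genes of prostaglandin and leukotriene biology were taken from a list of 57 arranged by function, all of which had a row (Ptgr3 under its other symbol Zadh2). Of these, 27 reached the count floor, and 4 were higher, 5 lower and 18 not called in the authors' deposited table, beside the 24.7% called over all genes. Rows of Slco2a1, Abcc4, Pla2g4c and Ptgfrn overlap other RefSeq genes and may share reads with them. With standard errors widened 2.08 times and p-values adjusted over the genes tested, 1 of these calls was left, that of Pla2g4a, so each of the other calls named below was lost there. The median log2 fold change of the 27 was 0.040 in the authors' deposited table.

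Upstream of the cyclooxygenases, 9 genes that release arachidonic acid were tested, with 2 rises and 1 fall in the authors' deposited table. The fall was that of Pla2g4a. Faah, which encodes a hydrolase that frees arachidonic acid from anandamide, rose from 11.1 to 15.8 CPM (log2 fold change 0.51 ± 0.084, adjusted p 4.32e-08) in the authors' deposited table. Pla2g4c, which encodes another cytosolic phospholipase A2, went up by 0.61 ± 0.22 on the log2 scale (adjusted p 0.0376) at 29.8 counts per library in the authors' deposited table. The abundant Plaa, a phospholipase A2 activating protein gene, and Dagla, which encodes a diacylglycerol lipase, stood at -0.059 ± 0.066 and -0.053 ± 0.069 in the authors' deposited table and were not called.

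The genes of prostaglandin transport changed in opposite directions. Slco2a1 encodes the carrier that takes prostaglandins up for breakdown, and it rose from 100 to 132 CPM (log2 fold change 0.40 ± 0.065, adjusted p 1.46e-08) in the authors' deposited table. Abcc4 encodes a pump that can export prostaglandins, and it fell from 37.8 to 32.2 CPM (log2 fold change -0.23 ± 0.072, adjusted p 0.0134) in the authors' deposited table. Of 5 genes of inactivation, 2 fell in the authors' deposited table. Akr1c14, an aldo-keto reductase gene, fell by 1.07 ± 0.18 from 2.36 to 1.12 CPM and Zadh2, the prostaglandin reductase 3 gene, by 0.25 ± 0.075, with adjusted p-values of 6.62e-08 and 0.00939 in the authors' deposited table. Ptgr1, a further prostaglandin reductase gene, stood at 0.18 ± 0.071 (adjusted p 0.0718) and the carbonyl reductase gene Cbr3 at -0.086 ± 0.072 in the authors' deposited table.

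Of the other receptor genes, Ptger2, Ptger3 and Ptgdr had no reads, and the thromboxane receptor gene Tbxa2r stayed under the floor in the authors' deposited table. Ptger1 (0.093 ± 0.092), Ptgir, the prostacyclin receptor gene (-0.68 ± 0.28), and Ptgdr2 (-0.24 ± 0.18) were tested and not called in the authors' deposited table. At a mean of 17.6 counts per library the Ptgir interval is wide. Ptgfrn encodes a membrane protein known to reduce prostaglandin F2alpha binding to its receptor, and it rose by 0.22 ± 0.064 on the log2 scale (adjusted p 0.00601) in the authors' deposited table, while the receptor gene Ptgfr itself was almost without reads. Of 3 other terminal synthase and reductase genes tested, 0 were called in the authors' deposited table (limma; 2 had an unadjusted p under 0.05). Those 2 differed in direction: Akr1b3, an aldose reductase gene, stood at -0.16 ± 0.073 and Gstm7 at 0.48 ± 0.18 (limma adjusted p 0.0537).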

How the data were processed

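The 4 libraries of nuclear RNA were made with a directional kit, per the labels' protocols. Named in the submitters' processing notes, with no role or order, are the build mm10 and the tools limma, edgeR, HOMER 4.10, Picard, SAMtools 1.10 and STAR 2.7.1a. Per the file headers, the authors' deposited table holds limma's log2 fold change, mean log2 expression, moderated t (a score), p-value and adjusted p-value per transcript, with start, end and exon length among its other columns. It has no value per library.

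The fold changes of 9211 rows without reads share 1 value (-0.21), and counts were derived from the lowest level taken as 0.5 counts per library. Among the 19541 rows whose mean log2 CPM reached 2, level alone explained 99.2% of the variation in log standard error. The authors' p-values thus rest on a spread pooled over transcripts rather than on each gene's own replicates. Apart from the smallest, they equal those of a normal deviate within 0.348%. The smallest p-values, those of Ptgs2, Ptgs2os2, Ptgs1 and Ptger4 among them, were left out of that comparison.

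The standard error is the log2 fold change divided by t, and 95% intervals assume normal errors. Group levels are the mean log2 CPM minus or plus 0.5 times the log2 fold change, as geometric means. For each gene the transcript of highest mean level was used, and tested at a mean of at least 10 counts (0.230 CPM). The test is the authors' own limma adjusted p under 0.05. The planned count tests need values per library and were not run. Genes named are the members, the pathway genes called, the 6 most abundant of those not called, and the called neighbours of called members; Odr4, Tpr, Prg4 and further receptor and low-level genes were named after their values were seen. The members and lists were chosen with earlier results of these data known. The calling step was tested on simulated data with normal errors drawn from the deposited standard errors. That test cannot show whether those standard errors are too small. Motifs were searched with python 3.11.15.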

Additional observations from a re-analysis of the deposited data

How the results depend on the processing

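No paired analysis was possible because the table holds no value per library; for the same reason the fits that leave out a library, edgeR and DESeq2 were not run. Widening each standard error by 2.08, a robust SD of the deposited t that holds real changes as well as error, left 3 members called (Ptgs2, Ptgs2os2 and Ptgs1, all lower), 1 gene of the pathway list (Pla2g4a, lower) and 576 of all genes (4.66%); Ptger4 (adjusted p 0.196), Ptges (0.698) and Ptgis (0.768) were no longer called. This and the centring settings were combined with Benjamini-Hochberg adjustment over the genes tested, a choice made after seeing the data. Counts of called members were 5 or 6 under the 7 other settings, and called pathway genes 8 to 11. Setting the median of 79 ribosomal protein genes (-0.044) to 0 as well as adjusting over the genes tested gave 59.8% rises among all called genes, against 46.4% with that adjustment alone. Ptges3, never called, turned to 0.013 there and to 0.038 once the trend of fold change with level was removed; the cause was not tested. Of 48 comparisons of a member with an alternative, 42 kept direction and call. An alternative among these took the transcript of greatest exon length in place of that of highest mean level. For every tested member that was the same row, so agreement there was fixed in advance.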

Other observations

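The lipoxygenase branch, which makes leukotrienes from the same arachidonic acid, was mostly silent. Of 13 genes listed, 3 had no reads and 3 reached the count floor. Of those 3, 0 were called in the authors' deposited table (limma; 0 had an unadjusted p under 0.05). Over all genes, 12355 of 25177 reached the floor and 24.7% of those were called, so 0 of 3 says little. Lta4h, the leukotriene A4 hydrolase gene, was well expressed at 50.2 CPM and stood at 0.043 ± 0.068. Alox5ap, which encodes the 5-lipoxygenase activating protein, had 1.95 CPM (-0.19 ± 0.16) and Alox8 had 1.04 CPM (0.082 ± 0.21), while Alox5 itself had a mean of 3.79 counts per library, under the floor, all in the authors' deposited table. Ltb4r2, a leukotriene B4 receptor gene, was listed as lower (adjusted p 0.0435) in the authors' deposited table on a geometric mean of 1.57 counts per library, too few to give a fold.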
